A study of Mus musculus with 6 samples.

Results

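The genes described here are the nuclear genes of respiratory complex I, taken as all rows of the expression table whose symbol begins with Nduf followed by a subunit letter or by the letters of an assembly factor. The rule took 43 of the 16179 genes measured. They were 7 core subunits, 28 accessory subunits, 7 assembly factors of the Ndufaf series and Ndufa4, which carries a complex I symbol but is now known as a subunit of cytochrome oxidase. Ndufs5, Ndufb1 and Ndufa4l2 had no row under these symbols, Ndufaf8 had one under its older symbol 1810043H04Rik, which the rule does not take, and the core subunits that are encoded in the mitochondrial genome were not analysed here.

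The expression values came from microglia of the hippocampus of male mice aged 10 months that lack progranulin (strain B6.129S4(FVB)-Grntm1.1Far/Mmja). Both groups carried that knockout, and wild-type microglia were not analysed here. Living CD11b+ CD45lo cells were sorted with BODIPY, a dye for neutral lipids, into a lipid droplet-low fraction (BODIPY-low) and a lipid droplet-high fraction (BODIPY-high), with 3 libraries in each group. Hippocampi of 2 mice were pooled for each library. Whether a BODIPY-low library shares its pool with a BODIPY-high one is not stated.

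Complex I is the NADH:ubiquinone oxidoreductase of the inner mitochondrial membrane, where it takes electrons from NADH, hands them to ubiquinone and pumps protons. Its core subunits, conserved from bacteria, hold the flavin and the iron-sulfur clusters, accessory subunits surround and stabilise them, and assembly factors help to build the enzyme without staying in it. Microglia draw on oxidative phosphorylation at rest and are known to lean toward glycolysis when they are activated by inflammatory stimuli.

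Depth lay between 24982215 and 34899425 reads per library, and a complex I gene had between 57 and 3988 reads in a library, with a median of 657. Levels are given as normalised read counts, which are reads divided by 1 size factor per library. Grn, the targeted gene, had between 416 and 1614 normalised reads over the 6 libraries, and counts over the whole gene are no check of a deletion within it. The 9 microglia markers P2ry12, Tmem119, Cx3cr1, Csf1r, Sall1, Siglech, Fcrls, Olfml3 and Gpr34 together took 5.21%, 5.23% and 4.91% of reads in the BODIPY-low group and 4.44%, 4.47% and 4.24% in the BODIPY-high group (here and in all lists of 3 values, in the order of replicates 1 to 3), and 2 of them, Cx3cr1 and Gpr34, were called lower. Markers of other cell types differed between the groups. The 10 markers of choroid plexus and ependyma took 0.0653%, 0.0136% and 0.0262% of reads in BODIPY-low and 0.887%, 0.535% and 0.955% in BODIPY-high, and all 10 were called higher. The 9 neutrophil markers took 0.290%, 0.113% and 0.115% in BODIPY-low and 0.00168%, 0.00846% and 7.22e-04% in BODIPY-high, and 8 were called lower. Their part in the differences of complex I genes was not tested.

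Part of the genes of complex I subunits were higher in BODIPY-high microglia, and no gene of the assembly factors was called. Whether the classes differ from each other was not tested. Of 35 tested subunit genes 12 rose at an adjusted p below 0.05, 23 did not pass, none was called lower, and the median log2 fold change was 0.47. Over all 12821 tested genes limma called 9.79% higher and 3.52% lower, and the median log2 fold change was -0.01. Fold changes are BODIPY-high minus BODIPY-low on the log2(value + 1) scale, tested with limma and adjusted by Benjamini-Hochberg over all tested genes. All 35 subunit genes had a positive log2 fold change, from 0.23 to 0.95, where 48.1% of tested genes had one. In 17 of the 35 every BODIPY-high library lay above every BODIPY-low library, a pattern that 18.0% of tested genes showed, and in none did every BODIPY-high library lie below, as in 13.4% of tested genes. In bulk samples a change in the makeup of the sorted cells and a change in RNA per cell cannot be told apart.

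**Figure D1:**
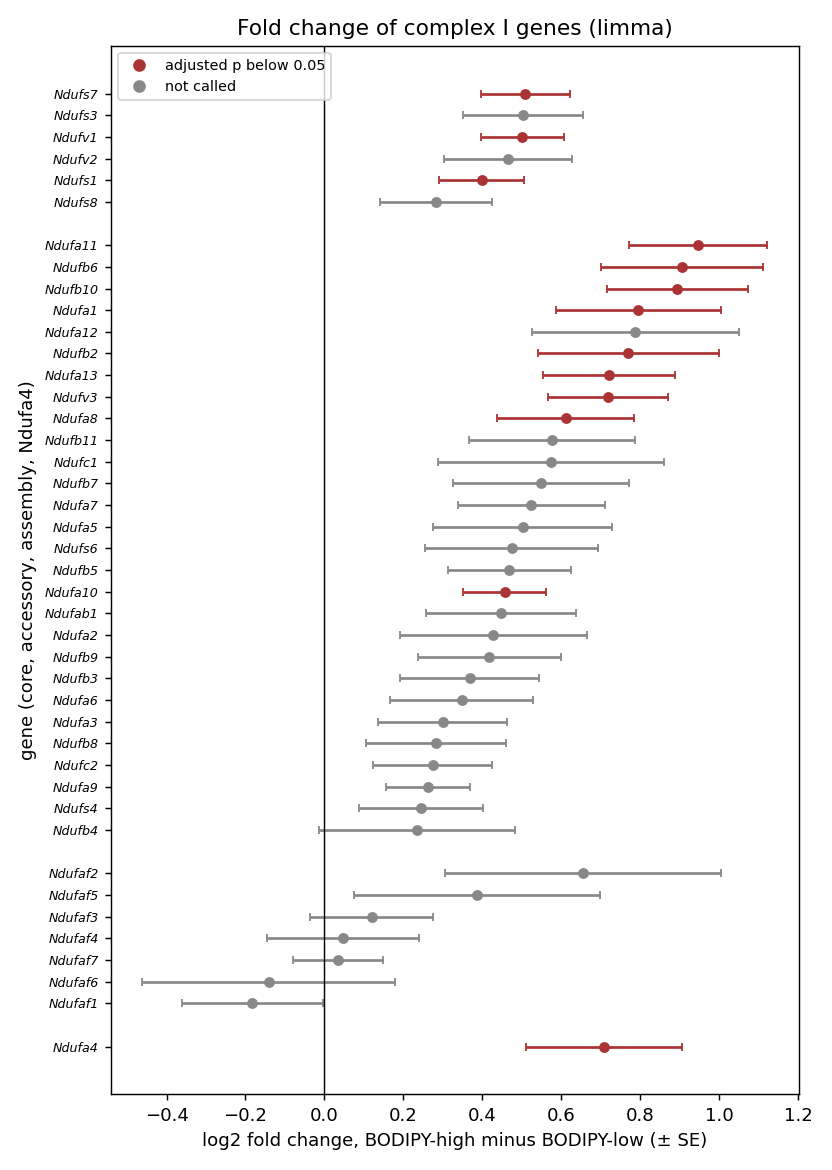
Log2 fold change of 42 of the 43 genes, BODIPY-high minus BODIPY-low, as fitted by limma, with bars of 1 SE; genes are ordered within core subunits, accessory subunits, assembly factors and Ndufa4. Every subunit gene shown lies right of 0, between 0.23 and 0.95, and the assembly factors spread from -0.18 to 0.66.

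The core subunits had log2 fold changes from 0.28 to 0.51, with a median of 0.47. Of the 7 genes 3 rose and the other 4 did not pass, and in 5 the groups did not overlap. Ndufv1 binds NADH and the flavin, and is the entry point of electrons (GRCm38 chromosome 19, 4007384 to 4012806). Its normalised read counts were 1401, 1513 and 1398 in BODIPY-low and 1888, 2012 and 2215 in BODIPY-high libraries. Every BODIPY-high library lay above the highest BODIPY-low one, and the log2 fold change was 0.50 (SE 0.10, limma adjusted p = 0.00972). Ndufs1, the largest iron-sulfur subunit of the same module (chromosome 1, 63143596 to 63176833), had 1392, 1589.8 and 1564 in BODIPY-low and 1935, 1879 and 2180.2 in BODIPY-high. Again the groups did not overlap, and it rose by 0.40 on the log2 scale (SE 0.11, limma adjusted p = 0.0330). Exons of Ndufs1 overlap those of Eef1b2 and Ino80dos on the other strand. Ndufs7, which holds the last iron-sulfur cluster before ubiquinone (chromosome 10, 80249121 to 80256794), had 1279.5, 1086 and 1247 in BODIPY-low and 1587, 1799.7 and 1748 in BODIPY-high. It rose by 0.51 (SE 0.11, limma adjusted p = 0.0130), with all BODIPY-high libraries above all BODIPY-low ones.

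Other core genes lay just outside the threshold or had overlapping groups. Ndufs3, a subunit of the ubiquinone-binding module without a cluster of its own, had 1061, 721 and 902 in BODIPY-low and 1122, 1300.3 and 1347 in BODIPY-high (log2 fold change 0.50, SE 0.15, limma adjusted p = 0.0526). The groups of Ndufs3 did not overlap. Ndufv2, an iron-sulfur subunit beside Ndufv1, had 1412, 921 and 1105 against 1409, 1812 and 1482 (0.47, SE 0.16, limma adjusted p = 0.0863), and BODIPY-low replicate 1 reached the lowest BODIPY-high library. Ndufs8, with iron-sulfur clusters between Ndufs1 and Ndufs7, had 1936, 1469 and 1693 against 1718, 2386 and 2112 (0.28, SE 0.14, limma adjusted p = 0.235), and again only BODIPY-low replicate 1 overlapped. Leaving out 1 library changed the count of core genes called higher to 4 without BODIPY-low replicate 1 or BODIPY-high replicate 1, to 1 and 2 without BODIPY-low replicates 2 and 3, and to 0 without BODIPY-high replicate 3, where Ndufv1 had an adjusted p of 0.0552. The call of Ndufs7 was also lost without BODIPY-low replicate 2, and that of Ndufs1 without any of the BODIPY-low libraries.

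**Figure D2:**
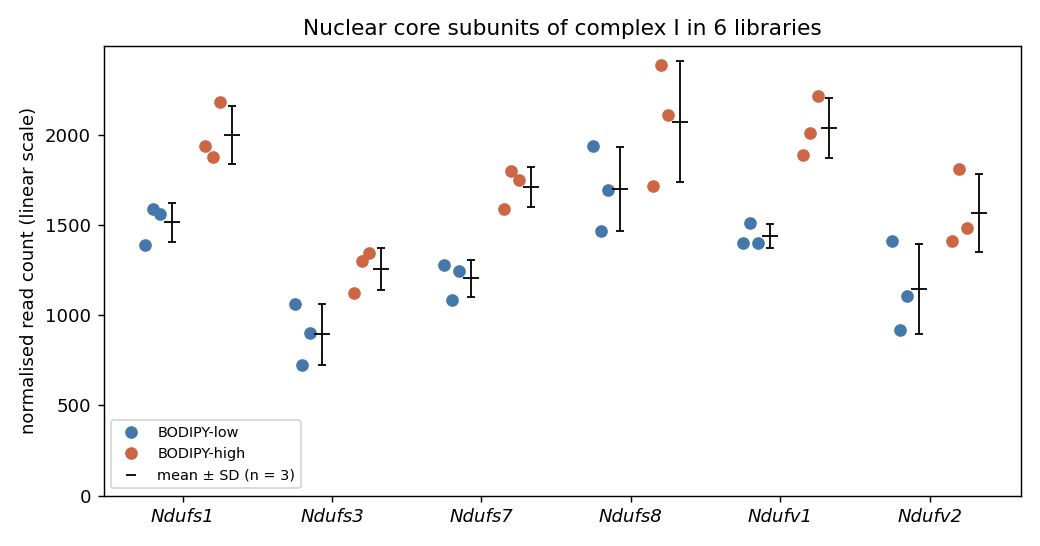
Normalised read count of 6 nuclear core subunits on a linear axis from 0, with 1 point per library and the mean ± SD of each group (n = 3). BODIPY-high points lie above all BODIPY-low points in every gene shown but Ndufs8 and Ndufv2, where BODIPY-low replicate 1 reached 1936 and 1412.

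The accessory subunits held the largest rises. Of 28 genes 9 rose and 19 did not pass, with a median log2 fold change of 0.49, and in 12 the groups did not overlap. The highest was Ndufa11, a membrane subunit of the proximal arm (chromosome 17, 56717767 to 56722141), whose counts were 574, 406 and 389.7 in BODIPY-low and 839, 787 and 988 in BODIPY-high. It was 1.91-fold higher in the mean, with a log2 fold change of 0.95 (SE 0.18, limma adjusted p = 0.00503), and its exons overlap those of Vmac on the other strand. Ndufb10, of the distal membrane arm (chromosome 17, 24722060 to 24724478), had 854, 513 and 582 against 1148, 1271 and 1124, a log2 fold change of 0.89 (SE 0.18, limma adjusted p = 0.00752). In both genes the lowest BODIPY-high library stood well clear of the highest BODIPY-low one, and both stayed called in each of the 6 fits with 1 library left out (adjusted p up to 0.0334 and 0.0388).

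Ndufb6, also of the distal arm (chromosome 4, 40270591 to 40279421), rose from 315 ± 92.1 to 576 ± 42.3 (SD, n = 3 each, log2 fold change 0.91, SE 0.20, limma adjusted p = 0.0142), and its exons overlap those of Smim27 on the other strand. Ndufa1, a small membrane subunit encoded on the X chromosome (37187588 to 37191163), rose from 523 ± 163 to 885 ± 112 (0.80, SE 0.21, limma adjusted p = 0.0292). Ndufv3, which sits with Ndufv1 and Ndufv2 in the NADH module, rose by 0.72 (SE 0.15, limma adjusted p = 0.01) from 475 ± 46.7 to 784 ± 99.5. Ndufa13, also known as GRIM-19 and studied for its part in cell death, rose by 0.72 (SE 0.17, limma adjusted p = 0.0160) from 649 ± 114 to 1069 ± 167. The other accessory genes called higher were Ndufb2 of the distal arm (0.77), Ndufa8 of the intermembrane side (0.61) and Ndufa10 of the proximal arm (0.46), with limma adjusted p of 0.0482, 0.0399 and 0.0149. Most of these calls were lost when 1 library was left out. Ndufb2 and Ndufa8 kept theirs in 1 of 6 such fits, without BODIPY-low replicate 1 (limma adjusted p up to 0.181 and 0.164), and lost them in edgeR (adjusted p = 0.0533 and 0.0610), and Ndufb2 also lost its call with no filter on low values and with a mean of at least 50. Ndufa1 and Ndufa13 kept their calls in 2 of 6 fits, without replicate 1 of either group (limma adjusted p up to 0.103 and 0.0736). Ndufb6 lost its call without BODIPY-low replicates 2 or 3 or BODIPY-high replicate 3 (up to 0.0654), Ndufa10 without BODIPY-low replicate 2 or BODIPY-high replicate 3 (up to 0.0770), and Ndufv3 without BODIPY-high replicate 3 (0.0552). Exons of Ndufa13 overlap those of Tssk6 on the other strand, and those of Ndufb2 overlap Braf, Gm16272 and, on the same strand, Gm42420.

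Among accessory genes that did not pass, Ndufa12 of the NADH module had the highest log2 fold change, at 0.79 (SE 0.26, limma adjusted p = 0.0749). Its BODIPY-low values were 592, 258 and 336 and its BODIPY-high values 683, 552 and 703, so BODIPY-low replicate 1 lay above the lowest BODIPY-high library, and without BODIPY-low replicate 1 the gene was called (limma adjusted p = 0.00464). At the low end, Ndufb4 had 357, 199 and 199 against 278, 318 and 261 (0.23, SE 0.25), Ndufs4, which helps to join the NADH module and is mutated in Leigh syndrome, had 545, 504 and 578 against 677, 733 and 533 (0.24, SE 0.16), and Ndufa9 had 2958, 2330.3 and 2492 against 3159.9, 3166 and 2959 (0.26, SE 0.11). Their limma adjusted p were 0.598, 0.357 and 0.141. The groups overlapped in Ndufb4 and Ndufs4, and in Ndufa9 they parted by less than 1 normalised read. Ndufb5 and Ndufb3 had groups that did not overlap but were not called (0.47 and 0.37, adjusted p = 0.0747 and 0.210). The remaining 13 accessory genes, with log2 fold changes from 0.27 to 0.58, had overlapping groups. The count of accessory genes called higher was 18 without BODIPY-low replicate 1, 3 and 4 without BODIPY-low replicates 2 and 3, and 7, 5 and 2 without BODIPY-high replicates 1, 2 and 3. In the same fits the count over all tested genes was 1295 without BODIPY-low replicate 1, 877 and 896 without BODIPY-low replicates 2 and 3, and 1075, 1141 and 689 without BODIPY-high replicates 1, 2 and 3, against 1255 with all libraries.

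BODIPY-low replicate 1 stood apart from the other libraries of its group. It was the highest BODIPY-low library in 26 of the 28 accessory genes, and BODIPY-low replicate 2 was the lowest in 26. In 16 accessory genes BODIPY-low replicate 1 reached at least the lowest BODIPY-high library, which BODIPY-low replicate 3 did in 2 and BODIPY-low replicate 2 in 0. Averaged over accessory genes and set against the BODIPY-low mean, log2 levels were 0.36, -0.31 and -0.05 in BODIPY-low and 0.41, 0.60 and 0.58 in BODIPY-high. For core genes the same averages were 0.10, -0.12 and 0.02 in BODIPY-low and 0.29, 0.50 and 0.47 in BODIPY-high. Within the BODIPY-low group, replicate 1 also had the highest share of choroid plexus markers (0.0653%) and of neutrophil markers (0.290%), and replicate 2 the lowest of both (0.0136% and 0.113%). Within the BODIPY-high group, the accessory averages of replicates 2 and 3 were close (0.60 and 0.58). There, replicate 2 had the lowest share of choroid plexus markers (0.535%) and the highest share of neutrophil markers (0.00846%). Between the groups, choroid plexus markers were higher and neutrophil markers lower in BODIPY-high, where the accessory averages were higher. Whether these shares bear on the accessory averages was not tested.

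**Figure D3:**
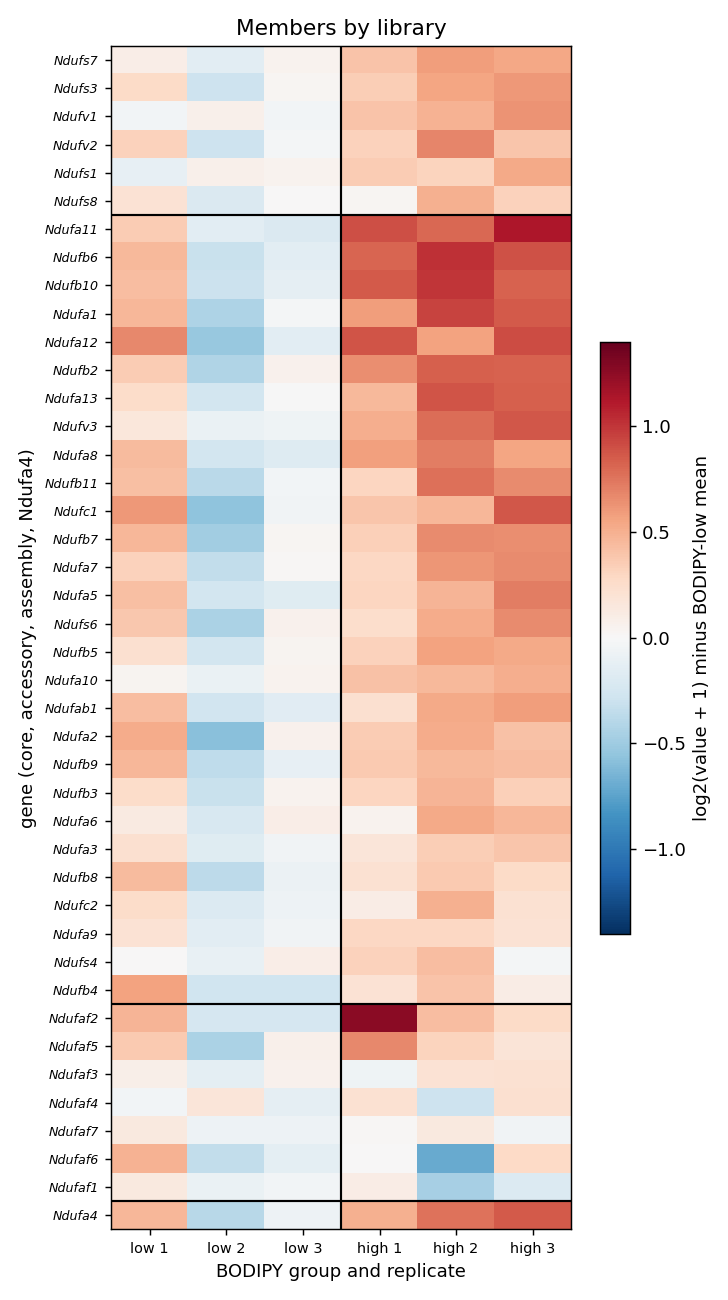
Heat map of log2(value + 1) minus the BODIPY-low mean of each gene (red higher, blue lower), with 42 genes in rows as core, accessory, assembly and Ndufa4, and the 6 libraries in columns. Subunit rows are mostly red in the BODIPY-high columns (Ndufs4 is near 0 in BODIPY-high replicate 3) and, in most accessory rows, pale red in BODIPY-low replicate 1 as well, whose accessory average was 0.36.

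Grouped by place in the enzyme, the subunits of every module had positive fold changes, and the counts called stand beside 9.79% of all tested genes called higher. In the NADH module 3 of 10 genes rose (Ndufv1, Ndufs1 and Ndufv3, median of the module 0.47), and in the ubiquinone-binding module 1 of 5 rose (Ndufs7, median 0.50). In the proximal membrane arm 5 of 9 rose (Ndufa1, Ndufa8, Ndufa10, Ndufa11 and Ndufa13, median 0.57), and in the distal membrane arm 3 of 11 rose (Ndufb2, Ndufb6 and Ndufb10, median 0.47). Ndufab1, the mitochondrial acyl carrier protein, was counted with the distal arm although a copy also sits in the matrix arm, and it had a log2 fold change of 0.45 (limma adjusted p = 0.159). Whether modules differ from each other was not tested.

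Of the 7 assembly factors of the Ndufaf series none was called in either direction by limma, edgeR or DESeq2. Over all 12821 tested genes limma called 9.79% higher and 3.52% lower, so 0 of 7 called is near the background. Of the 7 genes 0 had an unadjusted p under 0.05 in limma, beside 3475 of all tested genes. The median log2 fold change of the 7 assembly factors was 0.05, with 5 positive and 2 negative. In all 7 the groups overlapped. Over all tested genes every BODIPY-high library lay above every BODIPY-low one in 18.0%, and below in 13.4%. Ndufaf1, which works on the membrane arm together with Ecsit and Acad9, had 509, 434 and 452 in BODIPY-low and 499, 336 and 406 in BODIPY-high (log2 fold change -0.18, SE 0.18, limma adjusted p = 0.571). Ndufaf7, a methyltransferase, was the most abundant of the 7 per length, with 1429, 1233 and 1234 against 1311, 1423 and 1251 (0.03, SE 0.11, limma adjusted p = 0.888). The groups overlapped in both genes, and the SE of Ndufaf7 was of the size seen for called core genes.

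Ndufaf3 and Ndufaf4, which act together early on the ubiquinone-binding module, had log2 fold changes of 0.12 (SE 0.16) and 0.05 (SE 0.19), with limma adjusted p of 0.676 and 0.908. Ndufaf3 went from 447 ± 36.6 to 487 ± 51.0 normalised reads and Ndufaf4 from 353 ± 37.8 to 369 ± 69.1 (SD, n = 3 each). Ndufaf5, which hydroxylates Ndufs7, had 107, 60.7 and 87.2 in BODIPY-low and 133, 103 and 93.8 in BODIPY-high (0.39, SE 0.31, limma adjusted p = 0.477). Ndufaf6 had 219.5, 123 and 142 against 157, 95.1 and 189.9 (-0.14, SE 0.32, limma adjusted p = 0.824). The highest fold change in this class was that of Ndufaf2, a relative of Ndufa12 that holds its place in an assembly intermediate, with 107, 65.0 and 65.0 against 186, 104 and 93.0 (0.66, SE 0.35, limma adjusted p = 0.264). It rests on BODIPY-high replicate 1 more than on the others, and fell to 0.35 without that library. These 3 genes had the fewest reads of the class, and the highest SE, from 0.31 to 0.35. The gene 1810043H04Rik, now named Ndufaf8, had 193 ± 29.1 and 236 ± 67.5 (0.25, SE 0.26, limma adjusted p = 0.591).

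**Figure D4:**
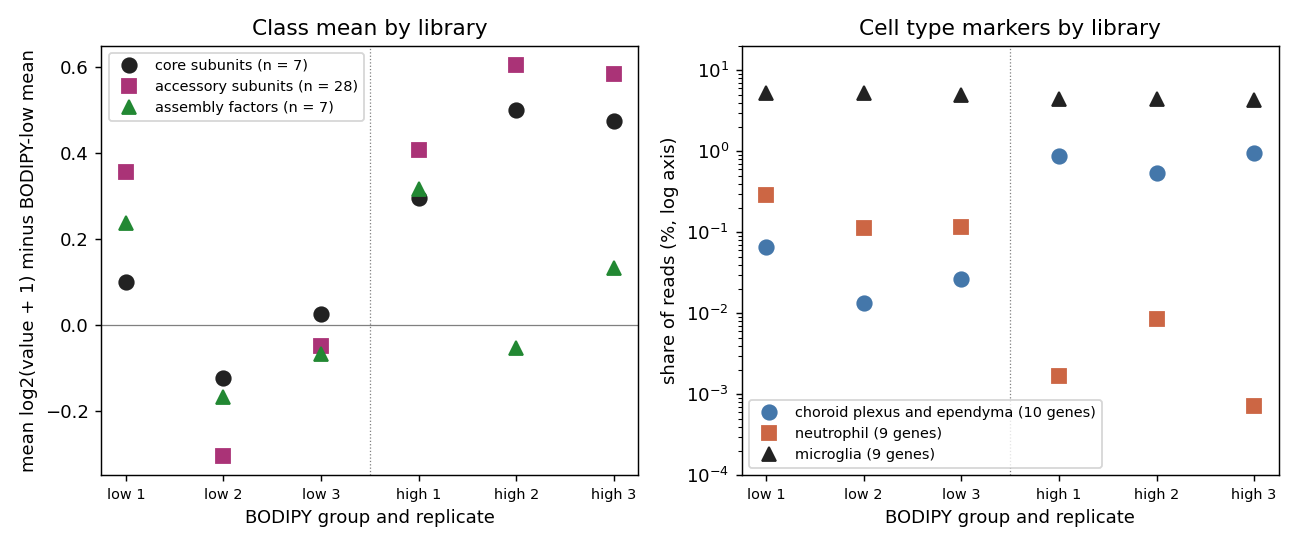
Left, mean over genes of log2(value + 1) minus the BODIPY-low mean, by library, for core subunits (n = 7), accessory subunits (n = 28) and assembly factors (n = 7); right, share of all reads from markers of choroid plexus and ependyma, neutrophils and microglia, in percent on a log axis. The subunit averages of the BODIPY-high libraries lie between 0.29 and 0.60, the assembly factors between -0.05 and 0.32, and choroid plexus markers between 0.535% and 0.955% against at most 0.0653% in BODIPY-low libraries.

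Per length, assembly factors were also the less abundant class. Normalised reads per kilobase of the principal transcript had a BODIPY-low median of 865 for core subunits, 593 for accessory subunits and 149 for assembly factors, and the BODIPY-high medians were 1227, 865 and 188. Summed over genes, core subunits had 385, 352 and 386 CPM in BODIPY-low and 444, 514 and 514 in BODIPY-high. Accessory subunits took 755, 519 and 602 against 792, 902 and 892, and assembly factors 111, 98.2 and 100.1 against 109, 101 and 107. The BODIPY-low and BODIPY-high sums did not overlap for core and accessory subunits, and overlapped for assembly factors.

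A list of 12 further assembly factors without an Ndufaf symbol was also tested. Beside it, of all 12821 tested genes limma called 9.79% higher and 3.52% lower, and 3475 had an unadjusted p under 0.05. Of the 11 list genes with a row limma, edgeR and DESeq2 each called none, which is near the background. Among these 11 genes 2 had an unadjusted p under 0.05 in limma, and the median log2 fold change was -0.06. The highest values were those of Acad9 (0.30, adjusted p = 0.165) and Ecsit (0.21, adjusted p = 0.483), members of the complex that builds the membrane arm, and the lowest those of Tmem186 (-0.37, adjusted p = 0.0994) and Dmac2, listed as Atp5sl (-0.32, adjusted p = 0.375). Tmem186, of the same complex as Acad9, had 1251, 1485 and 1412 in BODIPY-low and 1049, 1249 and 922 in BODIPY-high. These groups did not overlap, in the direction opposite to the subunits, a pattern that 13.4% of tested genes showed. The groups of Acad9 did not overlap either, in the direction of the subunits, as in 18.0% of tested genes. Acad9 had 1044, 1068 and 859 in BODIPY-low and 1203, 1121 and 1313 in BODIPY-high. In the other genes of this list with a row the groups overlapped. Without BODIPY-high replicate 2 limma called 1 gene of this list lower, and 392 of all tested genes.

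Of 8 tested regulators of nuclear respiratory genes, namely Nrf1, Gabpa, Gabpb1, Esrra, Ppargc1a, Ppargc1b, Pprc1 and Yy1, only Ppargc1a was called, beside 9.79% of all tested genes called higher and 3.52% lower, so the count is near the background. Ppargc1a, the coactivator PGC-1alpha, had 10.3, 4.26 and 12.1 in BODIPY-low and 169.6, 107.6 and 214 in BODIPY-high (log2 fold change 4.11, SE 0.49, limma adjusted p = 3.42e-04). Its rise was of the size of that of the choroid plexus markers, whose median log2 fold change was 4.60, and whether it comes from the same cells as the subunit genes was not tested. Nrf1, which binds the promoters of many respiratory genes, had a log2 fold change of -0.32 (limma adjusted p = 0.106). Of 7 tested genes that copy, transcribe or stabilise the mitochondrial genome 1 fell and 0 rose in limma, beside the same shares, with a median of -0.10. The gene that fell was Twnk, listed as Peo1, the mitochondrial DNA helicase, from 606 ± 45.5 to 403 ± 64.8 (-0.60, SE 0.16, limma adjusted p = 0.0330), and its call was lost in 5 of the 6 fits with 1 library left out, all but that without BODIPY-high replicate 2 (limma adjusted p up to 0.107).

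Promoters of complex I genes are shown for the letters bound by NRF1, a regulator known for respiratory genes. RefSeq start sites of build GRCm38.p6 gave 40 promoter sequences, from 250 bases before to 50 after the start, for 38 of the 43 genes. The letters GCATGCGC, part of the NRF1 motif and searched on both strands, stood in 5 of these 40 (12.5%) and in 2.71% of all 32851 promoters. They were in Ndufa11 and Ndufa8, which rose, and in Ndufa6, Ndufaf4 and Ndufaf5, which did not pass. The stretches before the RefSeq start are given 5′ to 3′ on the gene's strand, with the match in capitals, and 2 overlapping matches, as in Ndufa11 and Ndufaf4, form a run of 10 capitals.
Ndufa11 (chr17:56717692-56717721, + strand): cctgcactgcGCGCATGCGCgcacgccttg
Ndufa8 (chr2:36049339-36049357, - strand): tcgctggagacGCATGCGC
Ndufa6 (chr15:82354331-82354410, - strand): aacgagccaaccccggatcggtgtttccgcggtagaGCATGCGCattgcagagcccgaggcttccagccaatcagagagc
Ndufaf4 (chr4:24897934-24898015, + strand): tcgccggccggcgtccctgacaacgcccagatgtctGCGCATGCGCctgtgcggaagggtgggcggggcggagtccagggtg
The Ndufa8 stretch lies within an exon of Ndufa8 in GENCODE M21, where the gene begins further upstream. The Ndufa11 stretch overlaps an exon of Vmac. Ndufa11 and Ndufaf4 hold the same run of capitals and had log2 fold changes of 0.95 and 0.05. The bases around the run differ between them, and Ndufaf4 has a further match from base 2 after the start, which is not printed. Whether these matches bear on the fold changes was not tested. The letters AAGATGGC, part of the YY1 motif, stood in 7 of 40 promoters (17.5%) and in 2.75% of all. In these 7 every match began after the start, from base 23 in Ndufa3 and Ndufc1 to base 39 in Ndufb8. Of those 7 genes 1, Ndufs7, rose, beside 9.79% of all tested genes called higher. The letters CCGGAAG, bound by ETS factors such as GABP, stood in 12.5% against 8.86% of all, and CCAAT in 32.5% against 37.4%. Overlap between motifs was not removed, and a match is a description of these letters only.

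Ndufa4 was 1.59-fold higher in the mean and was called (chromosome 6, 11900292 to 11907497). Its counts were 1079, 595 and 740.5 in BODIPY-low and 1106, 1322 and 1419.8 in BODIPY-high (log2 fold change 0.71, SE 0.20, limma adjusted p = 0.0374). BODIPY-low replicate 1 lay just under the lowest BODIPY-high library. The call was lost with edgeR (adjusted p = 0.0524) and without BODIPY-low replicates 2 or 3 or BODIPY-high replicates 2 or 3 (adjusted p up to 0.137).

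The calls depended on the test and on single libraries more than the directions did. On recovered whole reads edgeR called 3 core and 7 accessory genes higher, with 9.48% of all tested genes called higher, and DESeq2 called 5 core and 9 accessory genes, with 11.4% of all tested genes called higher. The 35 subunit genes had positive fold changes under every one of 18 alternative settings, all of which reuse these same libraries. Settings that change only the filter or the variance model, or add the replicate block, leave each fold change as it was. They are therefore no check of direction. With 1 library left out the number called ranged from 2, without BODIPY-high replicate 3, to 22, without BODIPY-low replicate 1.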

How the data were processed

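SmartSeq v4 gave the cDNA and Nextera XT the libraries, per the labels' protocols. Per the submitters' processing notes and the design text, FastQC 0.11.4, STAR 2.5.3a (GeneCounts) and DESeq2 (at its standard settings) were used; the design text names mm10, and the notes also list mm9. No source used here names the annotation or strand setting. These kits do not mark strand, so reads of overlapping genes cannot be told apart. Exons of 16 members overlap a gene on the other strand and those of 3 one on the same strand. Genes that were not called are among the 16, such as Ndufaf3 (with Impdh2), Ndufaf2 (with B230220B15Rik), Ndufs3 (with Kbtbd4) and Ndufb5 (with Mrpl47). The deposited values are a signal, namely read counts divided by the authors with 1 size factor per library. At a tolerance of 0.01 read 100% of values gave whole reads.

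Genes with a mean of at least 10 (all 43 members and 12821 in all) were tested with limma 3.58.1 (under R 4.3.3, two-sided, with a variance trend and no block) on log2(value + 1), adjusted by Benjamini-Hochberg across all genes and called below 0.05. The recovered reads went into edgeR 4.0.16 and DESeq2 1.42.0. The scripts were tested on simulated data. The p-values reflect the spread among these libraries alone, which may be technical. Coordinates and transcript lengths come from GENCODE M21 (GRCm38), promoters from RefSeq. The values of 1 core gene, which stays in all counts and medians, and 1 marker of microglia, which is left out, are not reported here.

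Members and lists were chosen with earlier results of these data known. Named are the other core genes, the 5 highest and 3 lowest fold changes among accessory and assembly genes, Ndufa4, genes called lower, and the 2 highest and 2 lowest of the further assembly factors; other genes were named after their values were seen. Marker lists of neurons, astrocytes, oligodendrocytes, endothelium and monocytes had 1, 1, 0, 1 and 0 genes called higher and 0, 0, 0, 0 and 3 called lower. The gene called in the endothelium list was Slco1c1, with a log2 fold change of 3.97, beside a median of 4.60 for choroid plexus markers. The other endothelium markers were not called and ran from -0.55 (Flt1) to 0.37 (Cdh5).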

Additional observations from a re-analysis of the deposited data

How the results depend on the processing

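Of 774 refits of single members 691 kept their direction and side of the threshold, 40 lost a call, 35 gained one and 8 turned sign. Only the 13 members called in the main fit could lose a call, and the 30 others could only gain one. Settings that change only the filter or the variance model, or add the replicate block, could not turn a sign. The count of 691 is therefore no measure of how stable the calls are. With 1 library left out, core genes called higher numbered 0 to 4, accessory genes 2 to 18, and all tested genes 689 to 1295 higher and 151 to 523 lower, and medians ran from 0.36 to 0.54 (core) and 0.33 to 0.69 (accessory), and reached at most 0.14 in assembly factors. DESeq2 called 5 core genes. The sign turned in 3 assembly factors and in no other member. With 1 library left out, log2 fold changes ran from -0.038 to 0.21 in Ndufaf4 (negative without BODIPY-low replicate 3 or BODIPY-high replicates 1 or 3), from -0.017 to 0.10 in Ndufaf7 (negative without BODIPY-low replicates 2 or 3 or BODIPY-high replicate 2) and from -0.35 to 0.14 in Ndufaf6 (positive without BODIPY-low replicate 1 or BODIPY-high replicate 2). The cause was not tested.

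Replicate numbers were not taken as pairs. Same-numbered libraries had correlated deviations from their group means of 0.11, 0.14 and 0.07 for numbers 1, 2 and 3, each the highest for its library, as a hint from the data and not the design. With the replicate number as a block limma called 5 core and 10 accessory genes higher and 0 assembly factors, with Ndufa12 (adjusted p = 0.0165) and Ndufs3 (0.0385) among those gained, and 1451 genes higher and 760 lower in all. After removal of a trend on length and GC, an alternative chosen after seeing the data, limma called 5 core and 12 accessory genes higher. In all it then called 1350 genes higher and 601 lower. With the block added it called 5 core and 18 accessory genes higher, and 1636 genes higher and 1047 lower in all. Scaling by TMM or total reads left 3 core and 9 accessory genes.

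Ndufaf2, Ndufaf5 and Ndufaf6 had the fewest reads of all members and SE of 0.31 to 0.35. How much of that is counting error was not tested.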
